A study of Mus musculus with 24 samples.

Results

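The genes described here encode the enzymes of the citrate cycle and of pyruvate entry, and the proteins that take up fatty acids, carry them into mitochondria and oxidize them. A list of 39 such genes was set by function, and 37 of them had a probe set that could be tested, among 11098 genes tested in all. The long-chain acyl-CoA synthetase gene Acsl1 is not listed with a probe set in the annotation used, and the only probe set listed with Cpt1b is also listed with other genes, so neither is measured here. RNA from gastrocnemius and plantaris muscles was hybridised to 24 arrays, 4 for each of 6 groups, and the labels call the 4 arrays of a group biological replicates. The mice were males, bought at 6 weeks of age and given 3 days of acclimation, and then either bore weight (WB) or had their hind limbs unloaded (HU) for 6 days. Unloading takes the load off the rear legs and makes the leg muscles of normal mice waste. The wild type mice (WT) were of strain B6129PF2/J. The Nfkb1-/- mice (B6;129P2-Nfkb1tm1Bal/J) lack the gene for p105, the precursor of the NF-kappaB subunit p50. The Bcl3-/- mice (FVB;129P2-Bcl3tm1Ver/J) lack Bcl-3, a nuclear co-activator that binds p50. Both deletions are carried by every cell of the animal, and the Bcl3-/- mice differ from wild type in strain background as well. The study reported a loss of muscle mass with unloading in WT mice and a smaller one in Nfkb1-/- mice. In Bcl3-/- mice it reported no significant loss.

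Pyruvate from glycolysis enters the mitochondrion and is turned into acetyl-CoA by the pyruvate dehydrogenase complex, which the kinases Pdk2 and Pdk4 switch off. Fatty acids reach the same acetyl-CoA by another route. Lipoprotein lipase frees them from blood lipids, Cd36 and Fabp3 bring them into and through the fibre, Cpt1b and Cpt2 pass them over the mitochondrial membranes, and each turn of beta-oxidation shortens the chain. The citrate cycle burns acetyl-CoA and hands its electrons to the respiratory chain, while the electrons of the acyl-CoA dehydrogenases travel through Etfa, Etfb and Etfdh. Slow and oxidative fibres rely on these routes more than fast glycolytic fibres do, and the gastrocnemius and plantaris of the mouse are mostly fast muscles.

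Intensities were compared within a genotype, because the 16 WT and Nfkb1-/- arrays had medians of 11.6 to 11.9 and the 8 Bcl3-/- arrays had medians of 81.1 to 86.8. Array set, strain background and genotype of the Bcl3-/- mice cannot be told apart, so their levels are not set against those of the others, only their responses to unloading. A response is the log2 fold change of HU against WB with its standard error (SE), fitted with limma over 19294 probe sets, and a gene was called lower or higher at a Benjamini-Hochberg adjusted p under 0.05. Each gene is represented by its brightest probe set. Muscle markers matched the label, with the summed intensity of 12 fast fibre markers between 61861 and 68895 on the 16 WT and Nfkb1-/- arrays. The muscles were measured whole, so fewer cells of a type and less RNA per cell cannot be told apart.

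Unloading lowered genes of these pathways in all 3 genotypes and raised none by the test, where 2.18%, 5.22% and 7.5% of all genes were called higher in WT, Nfkb1-/- and Bcl3-/- mice. At an unadjusted p under 0.05, 1, 0 and 0 of the 37 genes were higher and 16, 21 and 16 were lower. Of all 11098 genes, 1999, 2790 and 2894 passed that threshold in either direction. In WT muscle 5 of 37 genes were called lower (13.5%), against 1.75% of all genes tested. In Nfkb1-/- muscle 15 of 37 were called lower (40.5%), against 7.02% of all genes. In Bcl3-/- muscle 10 of 37 were called lower (27.0%), against 2.99% of all genes. These counts depend on the probe set. Of all 60 tested probe sets of these genes, 12, 26 and 16 were called lower, against 1.66%, 6.59% and 2.81% of all probe sets. With a call on any probe set counted, 10, 17 and 11 genes were lower. Of the 17 genes with several probe sets, calls differed within 8 in WT, 4 in Nfkb1-/- and 2 in Bcl3-/- mice. The median log2 fold change of the 37 genes was -0.19 in WT, -0.22 in Nfkb1-/- and -0.16 in Bcl3-/- mice, while that of all genes was -0.01, 0.00 and 0.01. These are bright genes, and bright genes were called more often. Among the 1093 genes with a mean intensity of at least 200 on the WT and Nfkb1-/- arrays, 4.57% were called lower in WT, 15.6% in Nfkb1-/- and 5.49% in Bcl3-/- muscle, against 5, 12 and 9 of the 31 pathway genes among them. The WT and Bcl3-/- counts rest on few arrays. Without 1 array the WT count was 2 to 7, the lowest without WB replicate 2, HU replicate 3 or HU replicate 4, and the Bcl3-/- count was 5 to 10, the lowest without HU replicate 1. The Nfkb1-/- count was 9 to 15 and was lowest without HU replicate 4.

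**Figure D1:**
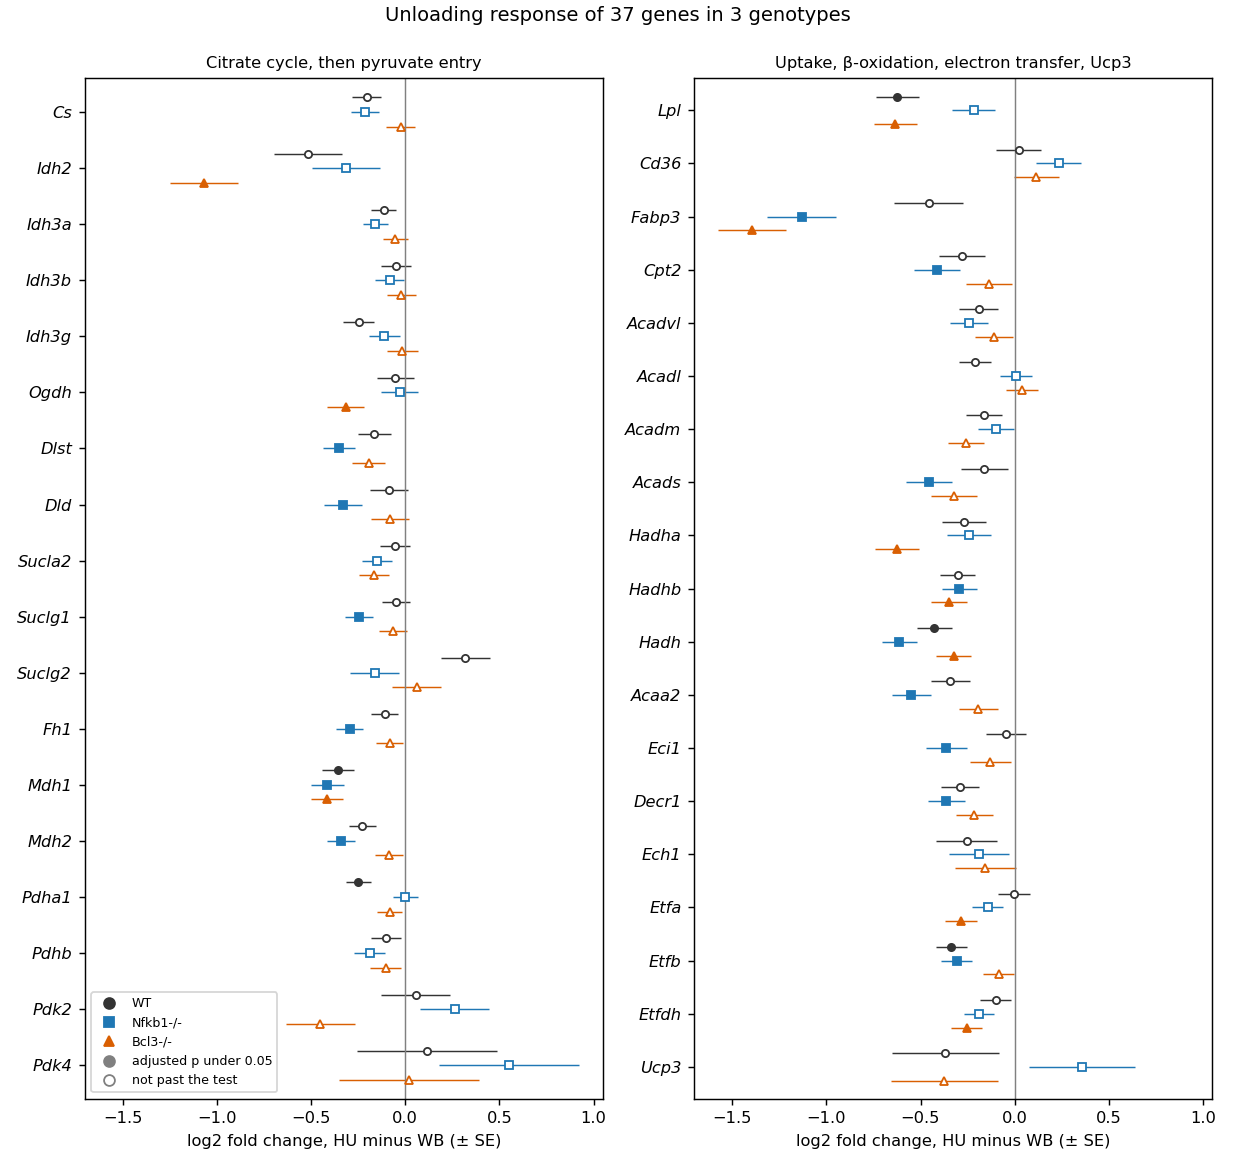
Log2 fold change of HU against WB (horizontal axis, ± SE, 4 arrays a group) for 37 genes in WT, Nfkb1-/- and Bcl3-/- mice, with filled marks for an adjusted p under 0.05 from limma. Most marks lie left of 0, and the longest shifts are those of Fabp3 (-1.13 in Nfkb1-/- and -1.40 in Bcl3-/- mice) and of Idh2 (-1.07 in Bcl3-/- mice).

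The size of the shift was small and its direction was shared. A negative log2 fold change in all 3 genotypes was seen for 31 of the 37 genes. Of the others, Acadl, Cd36, Pdk2, Pdk4, Suclg2 and Ucp3, none was called in any genotype on its brightest probe set. HU arrays lay wholly below WB arrays for 13 genes in WT, 17 in Nfkb1-/- and 13 in Bcl3-/- mice, against 4.89%, 10.9% and 4.07% of all probe sets. The opposite separation was seen for Suclg2 in WT, for Pdk2 in Nfkb1-/- and for no gene in Bcl3-/- mice, against 5.86%, 7.71% and 11.4% of all probe sets. Averaged over the 37 genes, each array was set against the WB mean of its genotype. The 4 WT HU arrays gave mean shifts from -0.24 to -0.08 on the log2 scale, the Nfkb1-/- HU arrays from -0.36 to -0.06 and the Bcl3-/- HU arrays from -0.29 to -0.19. WB arrays lay between -0.10 and 0.13, so that in WT and Nfkb1-/- mice the mildest HU arrays fell inside the WB range.

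Mdh1 and Hadh were the genes called lower in all 3 genotypes. Mdh1 encodes the cytosolic malate dehydrogenase of the malate-aspartate shuttle. Its intensities on the WT WB arrays were 1339, 1315, 1261 and 1253, and those on the HU arrays were 979, 1153, 942 and 968. In Nfkb1-/- mice they were 1202, 1356, 1398 and 1343 with weight bearing and 944, 1010, 1047 and 975 with unloading. In Bcl3-/- mice they were 6394, 5385, 6441 and 5430 against 3968, 4731, 4258 and 4778. Every HU array was below every WB array of its genotype. The log2 fold changes were nearly equal, at -0.36 (SE 0.09, adjusted p = 0.019 from limma) in WT, -0.41 (SE 0.09, adjusted p = 0.0027) in Nfkb1-/- and -0.41 (SE 0.09, adjusted p = 0.0039) in Bcl3-/- mice. The WT call was lost without any 1 of 4 arrays (WB replicates 1 and 2, HU replicates 3 and 4), with adjusted p of up to 0.068. It was also lost with the mean of all probe sets of the gene (adjusted p = 0.17 from limma). Both of the other tested probe sets of Mdh1 were called lower in the knockouts and not in WT, where their log2 fold changes were -0.04 (SE 0.13) and -0.13 (SE 0.07).

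Hadh encodes the short-chain 3-hydroxyacyl-CoA dehydrogenase, the third step of beta-oxidation in the mitochondrial matrix. It read 1529, 1578, 1531 and 1252 on WT WB arrays and 992, 1166, 1132 and 1085 on HU arrays. Nfkb1-/- muscle gave 1394, 1439, 1431 and 1443 with weight bearing and 888, 1002, 1008 and 846 with unloading. Bcl3-/- muscle gave 5154, 6014, 5166 and 5151 against 4316, 3919, 4021 and 4932. The groups did not overlap in any genotype, although the lowest WT WB array and the highest Bcl3-/- HU array came close to the other condition. On the log2 scale Hadh fell by 0.43 in WT (limma, adjusted p = 0.0087), by 0.61 in Nfkb1-/- (adjusted p = 2.0e-04) and by 0.32 in Bcl3-/- mice (adjusted p = 0.025), with an SE of 0.09 each. The Bcl3-/- call was lost without WB replicate 2 or without HU replicate 1, 2 or 3, with adjusted p of up to 0.083. The WT and Bcl3-/- calls were also lost when only the arrays of that genotype were fitted (adjusted p = 0.064 and 0.092 from limma).

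The sequence just before the start of each of these genes is shown because they fell in every genotype. Both are from RefSeq on build GRCm38.p6, 250 bases on the strand of the gene and ending at the base before its start. The Mdh1 stretch is chr11:21571935-21572184 on the minus strand and the Hadh stretch is chr3:131272102-131272351 on the minus strand. None of 4 motifs searched on both strands is in either window, and therefore no base is in capitals.
Mdh1: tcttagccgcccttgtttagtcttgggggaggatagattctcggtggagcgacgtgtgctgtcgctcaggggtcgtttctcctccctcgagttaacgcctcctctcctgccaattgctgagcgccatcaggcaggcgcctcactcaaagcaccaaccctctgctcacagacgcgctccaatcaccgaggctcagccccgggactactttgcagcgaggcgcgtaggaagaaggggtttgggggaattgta
Hadh: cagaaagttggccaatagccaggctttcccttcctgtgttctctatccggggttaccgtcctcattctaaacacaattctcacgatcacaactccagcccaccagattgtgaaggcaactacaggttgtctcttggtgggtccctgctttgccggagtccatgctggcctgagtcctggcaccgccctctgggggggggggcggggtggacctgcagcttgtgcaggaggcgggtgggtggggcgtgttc

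The motifs were the estrogen-related receptor site TNAAGGTCA, where N is any base, the PPAR and RXR element made of AGGTCA repeated after any base, a kappa B like site that reads GGG, any 2 bases, TT, any base and CC, and the NRF1 site that reads GCGCA, any base and GCGC. Each was searched on both strands, and no motif overlapped another in the windows shown. Windows of 250 bases before to 50 bases after the start were found for 34 of the 39 genes, 41 windows in all. The estrogen-related receptor site was in none of them and in 1.28% of all 32851 windows. The PPAR and RXR element was in none of them and in 0.0396% of all windows. The kappa B like site was in the windows of Etfa and Pdk4 (4.88% of the 41, against 4.79% of all windows). The NRF1 site was in those of Dld, Etfb, Etfdh and Sucla2 (9.76%, against 4.60%). These matches are letters in a window and were not set against any measure of binding.

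**Figure D2:**
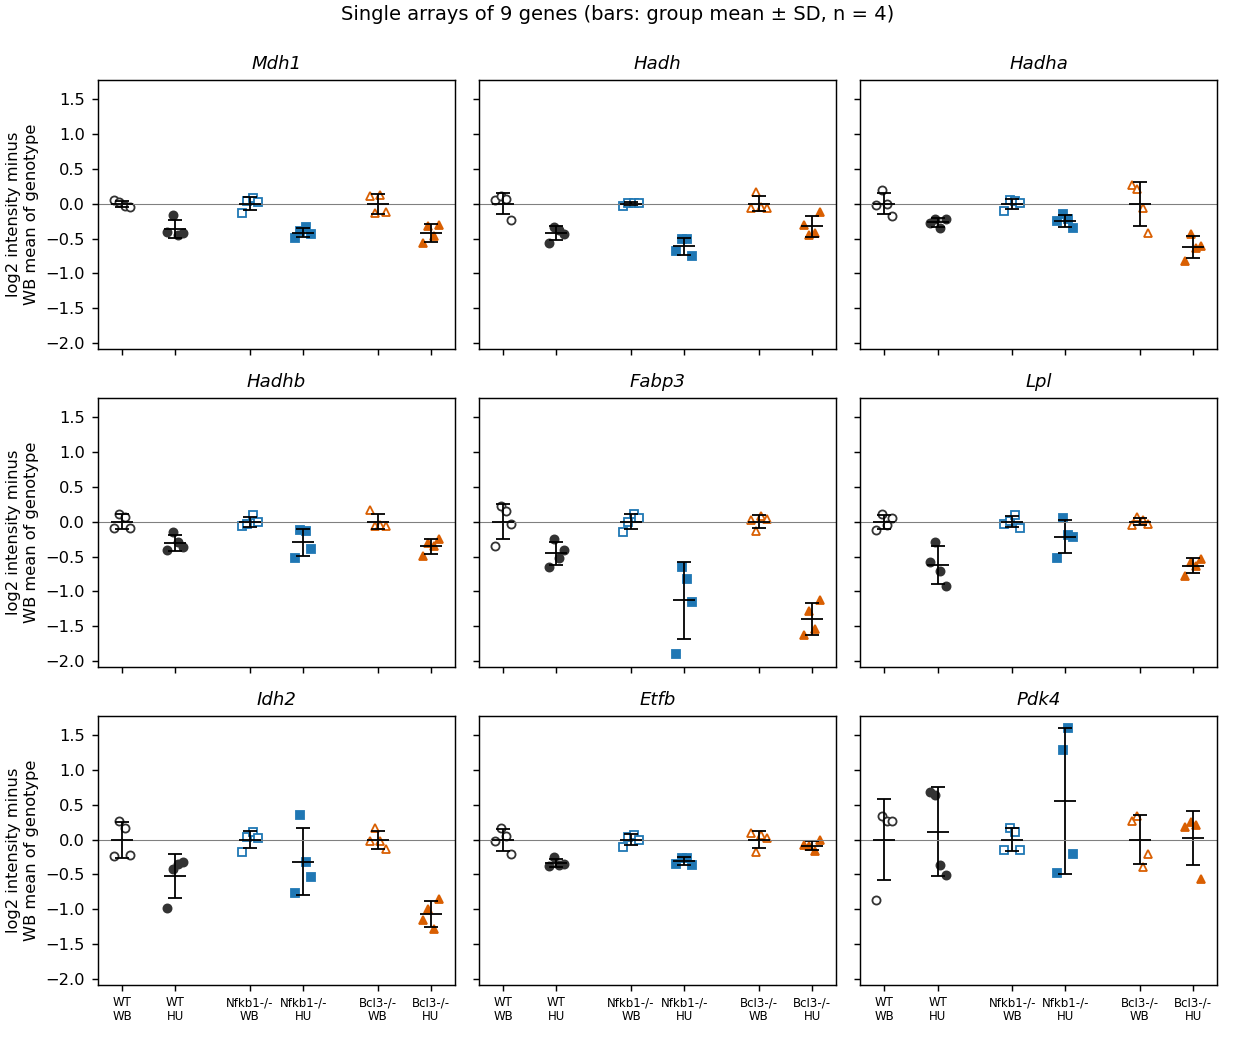
Log2 intensity of 9 genes on each array minus the WB mean of its genotype (vertical axis), with open marks for WB, filled marks for HU and bars for the group mean ± SD (n = 4). HU arrays lie wholly below WB arrays in every genotype for Mdh1, Hadh, Hadha and Hadhb, whereas Pdk4 spreads widely within its groups.

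Among the 14 genes listed with the citrate cycle, 1 was called lower in WT (Mdh1, a cytosolic enzyme), 6 in Nfkb1-/- and 3 in Bcl3-/- muscle. These were 7.14%, 42.9% and 21.4% of the 14, beside 1.75%, 7.02% and 2.99% of all genes. Idh2, the mitochondrial NADP-dependent isocitrate dehydrogenase, had the widest shift. On Bcl3-/- arrays it went from 2276, 2613, 2288 and 2112 with weight bearing to 1039, 1165, 954 and 1284 with unloading, with no overlap (-1.07, SE 0.18, adjusted p = 8.2e-04 from limma). WT arrays went from 190, 269, 251 and 192 to 113, 167, 174 and 179, without overlap but not past the test (-0.52, SE 0.18, adjusted p = 0.11). Nfkb1-/- arrays went from 161, 187, 197 and 186 to 107, 233, 146 and 126 and overlapped (-0.32, SE 0.18, adjusted p = 0.30), with HU replicate 2 above every WB array.

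In Nfkb1-/- muscle the 6 calls of the cycle were Mdh1, Mdh2, Dlst, Fh1, Dld and Suclg1. Mdh2, the mitochondrial malate dehydrogenase, read 2702, 2589, 2413 and 2753 with weight bearing and 2052, 2131, 2011 and 2043 with unloading (-0.34, SE 0.07, adjusted p = 0.0032 from limma). Dlst, the succinyltransferase of the 2-oxoglutarate dehydrogenase complex, read 317, 321, 291 and 295 against 254, 227, 262 and 218 (-0.35, SE 0.09, adjusted p = 0.0092). Fh1, the fumarase, read 525, 559, 563 and 546 against 419, 463, 486 and 422 (-0.29, SE 0.07, adjusted p = 0.0088). HU arrays of these genes were all below WB arrays. Dld, the dihydrolipoyl dehydrogenase shared by the 2-oxoglutarate and pyruvate complexes, and Suclg1, the alpha subunit of succinate-CoA ligase, fell by 0.33 and by 0.24 on the log2 scale (adjusted p = 0.033 and 0.035), and each of those calls was lost without any 1 of 5 arrays (WB replicates 1, 3 and 4 and HU replicates 1 and 4 for Dld, WB replicates 2 and 4 and HU replicates 2, 3 and 4 for Suclg1), with adjusted p of up to 0.12. In WT and Bcl3-/- mice none of these genes other than Mdh1 was called on its brightest probe set, with log2 fold changes from -0.23 to -0.05. Another probe set of Mdh2 was called lower in WT mice.

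Ogdh, the first subunit of the 2-oxoglutarate dehydrogenase complex, was called in Bcl3-/- mice alone. It read 3176, 3049, 2608 and 2227 with weight bearing and 2101, 2390, 2211 and 2101 with unloading (-0.32, SE 0.10, adjusted p = 0.039 from limma). One HU array lay above the lowest WB array, and the call was lost without WB replicate 1 or 2 or HU replicate 1, 3 or 4, with adjusted p of up to 0.13. The genes of NAD-dependent isocitrate dehydrogenase, Idh3a, Idh3b and Idh3g, had log2 fold changes from -0.25 to -0.02 and no call on their brightest probe sets. A different Idh3g probe set was called lower in WT mice. Citrate synthase (Cs), the entry enzyme of the cycle, gave -0.21 (SE 0.08) in WT, -0.21 (SE 0.08) in Nfkb1-/- and -0.03 (SE 0.08) in Bcl3-/- mice, with adjusted p of 0.13, 0.071 and 0.87. Another probe set of Cs was called lower in both knockouts (-0.24, SE 0.07 in each). Sucla2 gave values from -0.17 to -0.05. Suclg2, read at 33.7 to 54.3 on WT arrays and so near the minimum of 20 used for testing, gave 0.32 (SE 0.13, adjusted p = 0.18) in WT mice.

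At the entry of pyruvate, Pdha1, the catalytic alpha subunit of pyruvate dehydrogenase, was called lower in WT muscle alone. It read 1321, 1332, 1241 and 1344 with weight bearing and 1018, 1211, 1121 and 1065 with unloading (-0.25, SE 0.07, adjusted p = 0.031 from limma), and the call was lost without any 1 of 6 arrays (all but WB replicate 3 and HU replicate 2), with adjusted p of up to 0.11. In Nfkb1-/- mice Pdha1 read 1284, 1244, 1305 and 1278 against 1305, 1269, 1245 and 1290, which overlapped fully (0.00, SE 0.07). In Bcl3-/- mice the change was -0.08 (SE 0.07). Pdhb, its partner subunit, gave -0.10, -0.19 and -0.10 in WT, Nfkb1-/- and Bcl3-/- mice. A further Pdhb probe set was called lower in Nfkb1-/- mice.

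The inhibitory kinases moved unevenly and passed no test. Pdk4 is induced in muscle by fasting and by fatty acids. It read 260, 601, 573 and 572 on WT WB arrays and 768, 740, 371 and 335 on WT HU arrays. In Nfkb1-/- mice it read 519, 647, 622 and 518 against 412, 1400, 1748 and 497. Unloaded Nfkb1-/- muscles thus held 2 arrays above and 2 below the WB range of 518 to 647. In WT mice 2 HU arrays lay above every WB array and 2 lay inside the WB range of 260 to 601. Log2 fold changes of Pdk4 were 0.12 (SE 0.37), 0.55 (SE 0.37) and 0.02 (SE 0.37). Pdk2 gave 0.06 (SE 0.18) in WT, 0.26 (SE 0.18) in Nfkb1-/- and -0.45 (SE 0.18, adjusted p = 0.12) in Bcl3-/- mice. In Nfkb1-/- mice its WB arrays (333, 395, 364 and 331) lay below its HU arrays (462, 435, 398 and 412). Ucp3, a mitochondrial carrier of the uncoupling protein family, varied widely in WT mice, at 29.1, 74.2, 63.9 and 82.3 on WT WB arrays and 66.7, 61.2, 34.7 and 28.8 on WT HU arrays (-0.37, SE 0.28). Nfkb1-/- mice gave 0.36 (SE 0.28). In Bcl3-/- mice it read 851, 852, 831 and 715 against 684, 629, 564 and 630, without overlap but not called (-0.37, SE 0.28). A second Ucp3 probe set was called lower in WT (adjusted p = 0.020 from limma).

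The windows of Pdk4 and Etfa are shown because they hold the kappa B like letters and the mice lack p50 or its co-activator. Each is 250 bases on the minus strand ending before the start, chr6:5496279-5496528 for Pdk4 and chr9:55512244-55512493 for Etfa, from RefSeq on GRCm38.p6, with the match in capitals.
Pdk4: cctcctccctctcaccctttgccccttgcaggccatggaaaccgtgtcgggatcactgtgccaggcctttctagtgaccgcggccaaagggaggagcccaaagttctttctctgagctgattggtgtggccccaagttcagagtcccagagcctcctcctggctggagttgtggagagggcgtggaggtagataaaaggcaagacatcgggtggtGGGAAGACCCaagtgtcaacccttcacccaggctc
Etfa: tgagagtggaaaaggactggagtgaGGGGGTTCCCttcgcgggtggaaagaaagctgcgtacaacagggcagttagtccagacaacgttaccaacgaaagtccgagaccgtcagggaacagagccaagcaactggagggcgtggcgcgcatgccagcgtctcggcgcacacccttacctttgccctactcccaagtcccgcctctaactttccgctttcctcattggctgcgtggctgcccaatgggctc

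Fatty acid uptake held the largest falls. Fabp3, the fatty acid binding protein of heart and oxidative muscle, read 950, 1046, 1131 and 1086 on Nfkb1-/- WB arrays and 280, 670, 597 and 473 on HU arrays. Bcl3-/- arrays went from 5831, 5232, 6112 and 5894 to 1869, 2370, 1968 and 2633. No HU array of a knockout reached its WB range. The log2 fold changes were -1.13 (SE 0.18, adjusted p = 3.8e-04 from limma) in Nfkb1-/- and -1.40 (SE 0.18, adjusted p = 6.8e-05) in Bcl3-/- mice. WT arrays read 623, 922, 881 and 770 against 506, 663, 549 and 597, where HU replicate 2 lay above WB replicate 1, and the change was -0.46 (SE 0.18, adjusted p = 0.17). The response of WT minus that of Bcl3-/- mice was 0.94 (SE 0.26, adjusted p = 0.079), and WT minus Nfkb1-/- was 0.68 (SE 0.26, adjusted p = 0.28), so neither difference passed the test. The difference from Bcl3-/- mice lay near the threshold and passed under 4 alternative limma fits. These were only the groups compared (adjusted p = 0.029), array weights (0.020), log2 of the intensity plus 16 (0.047) and the replicate number as a block (0.040).

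Lpl, the lipoprotein lipase that frees fatty acids from circulating triglycerides, fell in WT and Bcl3-/- muscle. WT arrays went from 1646, 1931, 1734 and 1856 to 1201, 1468, 1094 and 945 (-0.62, SE 0.11, adjusted p = 0.0030 from limma). Bcl3-/- arrays went from 7123, 7715, 7486 and 7191 to 4282, 4957, 4741 and 5072 (-0.63, SE 0.11, adjusted p = 0.0014). Neither call was lost when any 1 array was left out. Nfkb1-/- arrays went from 1802, 1862, 1968 and 1737 to 1285, 1917, 1611 and 1581 and overlapped through HU replicate 2 (-0.22, SE 0.11, adjusted p = 0.25). The difference of the WT from the Nfkb1-/- response was -0.40 (SE 0.16, adjusted p = 0.30). Cd36, the fatty acid translocase, had log2 fold changes of 0.02, 0.23 and 0.11 (SE 0.12 each) and no call on any of its 3 probe sets. Cpt2, the inner membrane carnitine palmitoyltransferase, was called lower in Nfkb1-/- mice (163, 187, 209 and 171 against 140, 163, 136 and 112), at -0.41 (SE 0.12, adjusted p = 0.030), a call lost without WB replicate 2 or 3 or HU replicate 3 or 4 (adjusted p up to 0.11). In WT and Bcl3-/- mice Cpt2 gave -0.28 (SE 0.12) and -0.14 (SE 0.12).

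Of the 11 beta-oxidation genes, 1 was called lower in WT (Hadh), 6 in Nfkb1-/- and 3 in Bcl3-/- muscle. These were 9.09%, 54.5% and 27.3% of the 11, beside 1.75%, 7.02% and 2.99% of all genes. Hadha and Hadhb encode the alpha and beta subunits of the mitochondrial trifunctional protein, which carries out the last steps for long chains. Hadha read 384, 442, 386 and 343 against 318, 334, 303 and 332 in WT, and 370, 413, 412 and 401 against 336, 360, 342 and 312 in Nfkb1-/- mice. In Bcl3-/- mice it read 2604, 2496, 2056 and 1613 against 1224, 1601, 1383 and 1409. The groups did not overlap in any genotype, yet only the Bcl3-/- change was called (-0.62, SE 0.12, adjusted p = 0.0017 from limma), and the WT and Nfkb1-/- changes were -0.27 (SE 0.12, adjusted p = 0.21) and -0.24 (SE 0.12, adjusted p = 0.20).

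Hadhb separated in the same way. It read 626, 722, 703 and 624 against 503, 601, 547 and 519 in WT mice. Nfkb1-/- arrays read 694, 703, 775 and 717 against 503, 662, 656 and 550, and Bcl3-/- arrays 4337, 3719, 3736 and 3710 against 2739, 3123, 3038 and 3266. Its log2 fold changes were -0.30 (SE 0.09, adjusted p = 0.069 from limma) in WT, -0.29 (SE 0.09, adjusted p = 0.044) in Nfkb1-/- and -0.35 (SE 0.09, adjusted p = 0.020) in Bcl3-/- mice, and the Nfkb1-/- call was lost without any 1 of the WB arrays or without HU replicate 1 or 4 (adjusted p up to 0.15). The Bcl3-/- call was lost without WB replicate 1 or HU replicate 1 (up to 0.081). A second Hadhb probe set gave 0.16 (SE 0.15) in WT and -0.52 (SE 0.15) in each knockout. With Mdh1 and Hadh, these were the 4 genes of the 37 whose HU arrays lay below the WB arrays in all 3 genotypes.

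Hadha and Hadhb lie head to head on mouse chromosome 5, and 272 bases separate their starts. The 228 bases that belong to the promoter windows of both genes, chr5:30155003-30155230 on GRCm38.p6 (RefSeq), are shown on the plus strand, that of Hadhb, because this stretch lies between the starts of both subunits. It holds no match to the 4 motifs.
Hadha and Hadhb: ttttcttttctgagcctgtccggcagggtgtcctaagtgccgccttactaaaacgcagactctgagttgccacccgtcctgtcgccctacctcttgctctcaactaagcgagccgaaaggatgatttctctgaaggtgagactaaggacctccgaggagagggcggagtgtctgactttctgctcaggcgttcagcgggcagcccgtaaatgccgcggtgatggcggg

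The remaining calls in beta-oxidation were in Nfkb1-/- muscle. Acaa2, the matrix thiolase of the last step, read 244, 271, 252 and 271 with weight bearing and 170, 207, 195 and 144 with unloading (-0.55, SE 0.10, adjusted p = 0.0013 from limma). Acads, the short-chain acyl-CoA dehydrogenase, read 76.3, 80.0, 73.6 and 81.5 against 68.7, 55.5, 49.5 and 54.7 (-0.46, SE 0.12, adjusted p = 0.018). Both genes separated fully. Decr1 and Eci1, the auxiliary reductase and isomerase for unsaturated chains, read 220, 229, 239 and 253 against 195, 204, 179 and 155, and 199, 240, 226 and 198 against 154, 187, 184 and 147. Each fell by 0.36 on the log2 scale (adjusted p = 0.019 and 0.029). These calls were lost without single arrays, that of Acads without WB replicate 4 or HU replicate 3 (adjusted p up to 0.069), that of Decr1 without WB replicate 4 or HU replicate 4 (up to 0.072) and that of Eci1 without WB replicate 2 or 3 or HU replicate 1 or 4 (up to 0.10). In WT mice Acaa2 gave -0.34 (SE 0.10, adjusted p = 0.064) and Decr1 gave -0.29 (SE 0.10, adjusted p = 0.10), while other probe sets of both genes were called lower there (-0.42, SE 0.11 and -0.45, SE 0.12).

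The other acyl-CoA dehydrogenases were not called. Acadvl, for very long chains, gave -0.19, -0.24 and -0.11 in WT, Nfkb1-/- and Bcl3-/- mice, and Acadm, for medium chains, gave -0.16, -0.10 and -0.26 (SE 0.10 for each value of both genes). Acadl, for long chains, gave -0.21, 0.01 and 0.04 (SE 0.09 each). Ech1, an auxiliary dienoyl-CoA isomerase, gave -0.25, -0.19 and -0.16 (SE 0.16 each). None of these 4 genes was called in any genotype.

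The electron transfer flavoprotein passes electrons from the acyl-CoA dehydrogenases to ubiquinone through Etfdh. Its beta subunit, Etfb, read 414, 471, 432 and 361 against 321, 353, 324 and 327 in WT and 352, 392, 399 and 378 against 299, 318, 316 and 296 in Nfkb1-/- mice. HU arrays were below WB arrays in both genotypes, at -0.34 (SE 0.08, adjusted p = 0.020 from limma) and -0.31 (SE 0.08, adjusted p = 0.016). The WT call was lost without WB replicate 2 or 3 or HU replicate 1, 3 or 4 (adjusted p up to 0.086). In Bcl3-/- mice Etfb overlapped, at -0.08 (SE 0.08). The alpha subunit, Etfa, had the reverse order of sizes. It gave 0.00 (SE 0.08) in WT, -0.14 (SE 0.08) in Nfkb1-/- and -0.28 (SE 0.08, adjusted p = 0.032) in Bcl3-/- mice, where it read 2685, 3243, 2653 and 2711 against 2173, 2331, 2306 and 2433. That call was lost without WB replicate 2 or HU replicate 1, 2 or 3 (adjusted p up to 0.11). WT minus Bcl3-/- was -0.25 (SE 0.12, adjusted p = 0.34) for Etfb and 0.28 (SE 0.12, adjusted p = 0.29) for Etfa, and neither difference passed the test. Etfdh was called in Bcl3-/- mice alone (-0.26, SE 0.08, adjusted p = 0.045), a call lost whichever of the 8 arrays was left out. The Etfb window, chr7:43443822-43444071 on the plus strand of GRCm38.p6 (RefSeq, 250 bases ending before the start), is shown for its NRF1 match in capitals.
Etfb: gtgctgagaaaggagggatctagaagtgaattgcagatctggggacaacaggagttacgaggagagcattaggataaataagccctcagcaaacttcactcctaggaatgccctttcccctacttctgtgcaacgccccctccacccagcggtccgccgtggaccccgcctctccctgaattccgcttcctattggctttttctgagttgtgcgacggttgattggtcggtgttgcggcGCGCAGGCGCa

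The design also asks whether the response depends on p50 or Bcl-3. No difference between responses was called for any of the 37 genes by limma, against 0.207% of all genes for WT minus Nfkb1-/-, 1.17% for WT minus Bcl3-/- and 1.74% for Nfkb1-/- minus Bcl3-/-. At an unadjusted p under 0.05 the counts were 5, 5 and 9 of 37, beside 1362, 1482 and 2017 of all 11098 genes. The largest differences were those of Fabp3 between WT and Bcl3-/- mice and of Idh2 between Nfkb1-/- and Bcl3-/- mice (0.75, SE 0.25, adjusted p = 0.12). That of Fabp3 passed under 4 alternatives, that of Idh2 with array weights (adjusted p = 0.029), and those of Pdk2 and Hadha between Nfkb1-/- and Bcl3-/- mice without Bcl3-/- WB replicate 4 (0.045 and 0.048). The typical SE of a difference was 0.14 on the log2 scale. So a gene called in one genotype and not in another, of which there were 20 of the 22 genes called at all, was not shown to differ between them. With weight bearing, none of the 37 genes differed between Nfkb1-/- and WT mice by limma, against 0.856% of all genes. At an unadjusted p under 0.05, 2 of 37 differed, beside 864 of all 11098 genes. Those 2 genes were Ech1 (0.51, SE 0.16, adjusted p = 0.20) and Fabp3 (0.41, SE 0.18, adjusted p = 0.56). Ech1 passed without WT WB replicate 2 (adjusted p = 0.0057).

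Other genes of the cycle and of pyruvate entry moved in part with those above. Of 13 measured, 3 were called lower in WT, 2 in Nfkb1-/- and 2 in Bcl3-/- mice, where 2 were called higher. The lower genes were 23.1%, 15.4% and 15.4% of the list, beside 1.75%, 7.02% and 2.99% of all genes. Those higher in Bcl3-/- mice were 15.4%, beside 7.5%. Among the genes with a mean intensity of at least 200, 15.6% were called lower in Nfkb1-/- mice, near the share of this list. Sdhb, the iron-sulfur subunit of succinate dehydrogenase, was called lower in all 3 genotypes, at -0.31, -0.35 and -0.27 (SE 0.08 each). The WT call of Sdhb was lost without WB replicate 1 or 2 or HU replicate 1, 3 or 4 (adjusted p up to 0.092) and the Bcl3-/- call without WB replicate 1 or 3 or HU replicate 1 or 3 (up to 0.090). Dlat, the acetyltransferase of the pyruvate dehydrogenase complex, gave -0.37 in WT and -0.48 in Nfkb1-/- mice (SE 0.09, adjusted p = 0.028 and 0.0018 from limma). Sdha, the flavoprotein subunit of succinate dehydrogenase, gave -0.35 (SE 0.09, adjusted p = 0.020) in WT, and Sdhc, a membrane anchor of the same enzyme, gave -0.62 (SE 0.13, adjusted p = 0.0033) in Bcl3-/- mice. The genes that rose in Bcl3-/- mice work outside the cycle itself, as the cytosolic Mdh1 above does. Idh1, the cytosolic NADP-dependent isocitrate dehydrogenase, gave 0.67 (SE 0.11, adjusted p = 5.1e-04), opposite in direction to Idh2, and Me2, a mitochondrial malic enzyme, gave 0.47 (SE 0.13, adjusted p = 0.024). In WT mice Dlat also lost its call without WB replicate 3 or HU replicate 3 or 4 and Sdha without HU replicate 1, and the count of 3 was 0 without WB replicate 1 or 2 and with only the groups compared. In Bcl3-/- mice the count of lower genes was 1 without WB replicate 1 or 3 or HU replicate 1 or 3 and 4 without HU replicate 4, and Me2 lost its call without WB replicate 2 or HU replicate 1 or 3.

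**Figure D3:**
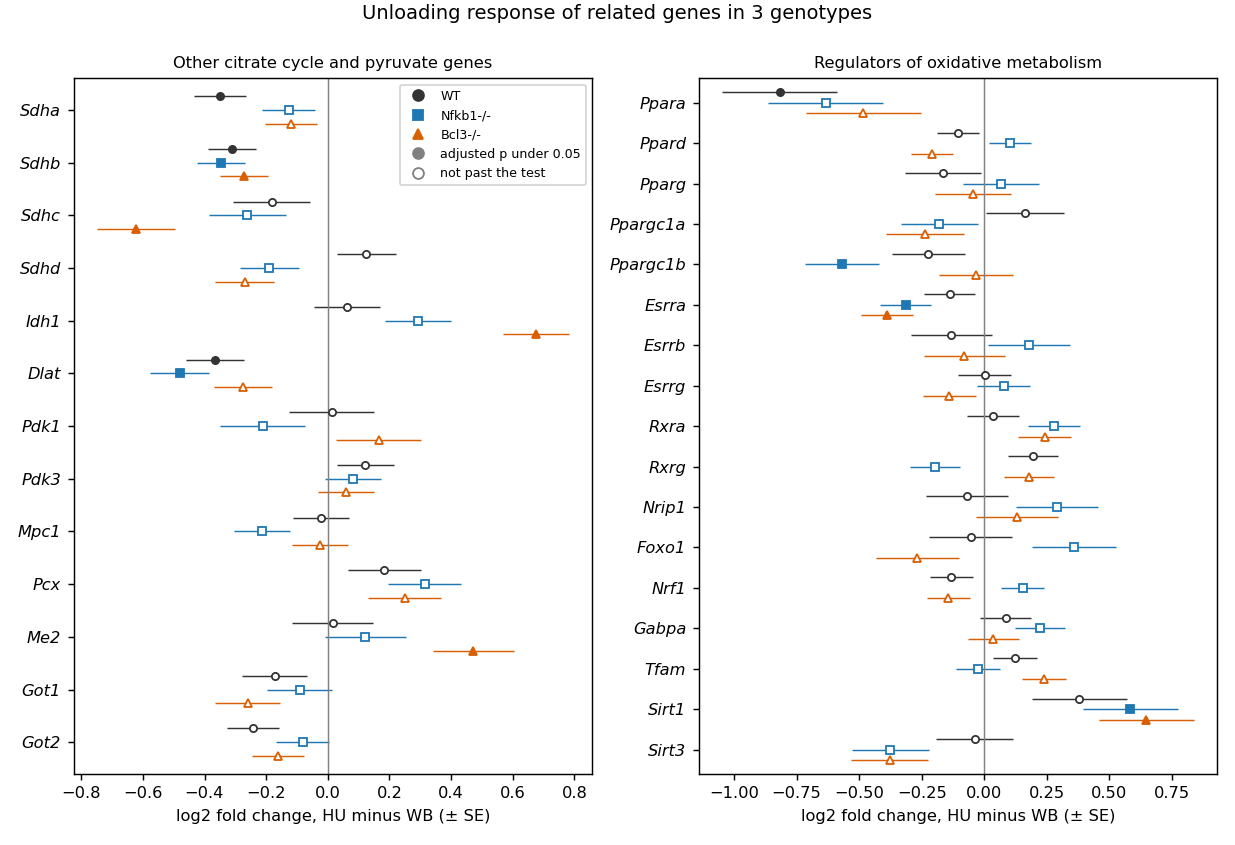
Log2 fold change of HU against WB (horizontal axis, ± SE, 4 arrays a group) for 13 further genes of the citrate cycle and pyruvate metabolism and for 17 regulators, with filled marks for an adjusted p under 0.05 from limma. Sdhb is filled and left of 0 in all 3 genotypes, and Idh1 lies at 0.67 in Bcl3-/- mice.

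Other genes of fatty acid handling had few calls. Of 26 measured, 0 were called in WT by limma (6 at an unadjusted p under 0.05), 1 higher and 2 lower in Nfkb1-/-, and 2 higher and 1 lower in Bcl3-/- mice, with medians of -0.06, -0.01 and 0.00. The lower genes were 7.69% of the list in Nfkb1-/- and 3.85% in Bcl3-/- mice, and the higher genes 3.85% and 7.69%, beside 7.02% and 2.99% of all genes called lower and 5.22% and 7.5% called higher. Without 1 array the counts were 0 to 3 lower and 0 to 4 higher in Nfkb1-/- mice (0 lower without WB replicate 4, 4 higher without HU replicate 4), 0 to 1 lower and 1 to 5 higher in Bcl3-/- mice (5 higher without WB replicate 3), and 0 to 2 higher in WT mice (2 without HU replicate 2). Those lower were Fabp5 (-0.71, SE 0.20) and the carnitine-acylcarnitine carrier Slc25a20 (-0.38, SE 0.11) in Nfkb1-/- mice and the thiolase Acat1 (-0.25, SE 0.08) in Bcl3-/- mice. Those higher were the acyl-CoA synthetases Acsl6 (0.59, SE 0.18) in Nfkb1-/- and Acsl4 (0.54, SE 0.16) in Bcl3-/- mice, and Acacb (0.56, SE 0.13) in Bcl3-/- mice, which makes the malonyl-CoA that inhibits carnitine palmitoyltransferase 1. The call of Acacb was kept whichever array was left out. The others were lost without single arrays, with adjusted p up to 0.11 (Fabp5 without WB replicate 4 or HU replicate 3, Slc25a20 without WB replicate 4 or HU replicate 1 or 4, Acat1 without any but WB replicate 4 and HU replicate 4, Acsl6 without any but HU replicates 1 and 4, Acsl4 without WB replicate 1 or HU replicate 2 or 3). Among 11 genes of lipid storage and release, Dgat2, which makes triglyceride, was called lower in WT (-0.77, SE 0.19) and Bcl3-/- mice (-0.69, SE 0.19), the lipase Mgll was lower in Bcl3-/- mice (-0.51, SE 0.14), and Plin4 and the lipase Lipe were higher in Nfkb1-/- mice (0.79, SE 0.21 and 0.56, SE 0.14). The lower genes were 9.09% of this list in WT and 18.2% in Bcl3-/- mice, beside 1.75% and 2.99% of all genes. Those higher in Nfkb1-/- mice were 18.2%, beside 5.22%. Of the calls on this list, that of Lipe alone was kept whichever array was left out. The others were lost without 1 of 3 arrays (Dgat2 in WT without WB replicate 1 or 2 or HU replicate 1, Dgat2 in Bcl3-/- without HU replicate 1, 2 or 3, Plin4 without WB replicate 4 or HU replicate 2 or 3) or 1 of 5 (Mgll without WB replicate 1 or 3 or HU replicate 1, 2 or 3), with adjusted p up to 0.088.

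Of 17 regulators of these genes, 1 was called in WT, 3 in Nfkb1-/- and 2 in Bcl3-/- mice. Those lower were 5.88%, 11.8% and 5.88% of the list, beside 1.75%, 7.02% and 2.99% of all genes, and those higher were 5.88% in each knockout, beside 5.22% and 7.5%. Ppara, the fatty acid receptor that drives oxidation genes, was called lower in WT (-0.82, SE 0.23, adjusted p = 0.044 from limma). Its intensity there went from 49.5 ± 18.1 (SD, n = 4) to 27.2 ± 4.68, near the minimum of 20 used for testing. Esrra, the estrogen-related receptor alpha, was called lower in both knockouts, at -0.31 (SE 0.10, adjusted p = 0.0496) and -0.39 (SE 0.10, adjusted p = 0.019). The co-activator gene Ppargc1b was called lower in Nfkb1-/- mice (-0.57, SE 0.15, adjusted p = 0.013). Sirt1, a deacetylase, was called higher in Nfkb1-/- (0.58, SE 0.19) and Bcl3-/- mice (0.65, SE 0.19). Each of these calls rested on single arrays. That of Ppara was lost without any 1 array but WB replicate 3 (adjusted p up to 0.16), that of Esrra in Nfkb1-/- mice without any but HU replicate 3 (up to 0.17) and in Bcl3-/- mice without WB replicate 1 or HU replicate 1 or 3 (up to 0.074). That of Ppargc1b was lost without HU replicate 3 (0.052), and those of Sirt1 without WB replicate 1, 2 or 4 or HU replicate 2 or 3 in Nfkb1-/- mice (up to 0.21) and without any but WB replicate 2 in Bcl3-/- mice (up to 0.082).

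Genes of the respiratory chain were called lower in each genotype. Of 25 oxidative phosphorylation genes, 10 were called lower in WT, 13 in Nfkb1-/- and 3 in Bcl3-/- mice, with medians of -0.21, -0.21 and -0.08, and none was called higher. These were 40%, 52% and 12% of the list, beside 1.75%, 7.02% and 2.99% of all genes. The WT count was 0 when only the WT groups were fitted and 3 without WB replicate 2 or HU replicate 1 or 3. The Nfkb1-/- count was 8 without HU replicate 2, and the Bcl3-/- count was 1 without WB replicate 1 or HU replicate 1 or 3. Cox7a1, the muscle form of a cytochrome oxidase subunit, gave -0.63 (SE 0.12) in WT and -0.68 (SE 0.12) in Nfkb1-/- mice. Of 15 genes of glycolysis and glycogen use, none was called in WT by limma (3 at an unadjusted p under 0.05), 1 was higher and 2 lower in Nfkb1-/- mice (6.67% and 13.3%), and 1 was higher and 1 lower in Bcl3-/- mice (6.67% each). The higher call in Nfkb1-/- mice, Pfkm, was lost whichever array was left out, and 1 lower gene was left without WB replicate 2, 3 or 4 or HU replicate 1 or 4. Their medians were -0.06, -0.02 and 0.07. Ldhb, the lactate dehydrogenase subunit typical of oxidative muscle, was the gene of that list with the largest call, at -1.05 (SE 0.15, adjusted p = 1.4e-04) in Bcl3-/- mice.

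**Figure D4:**
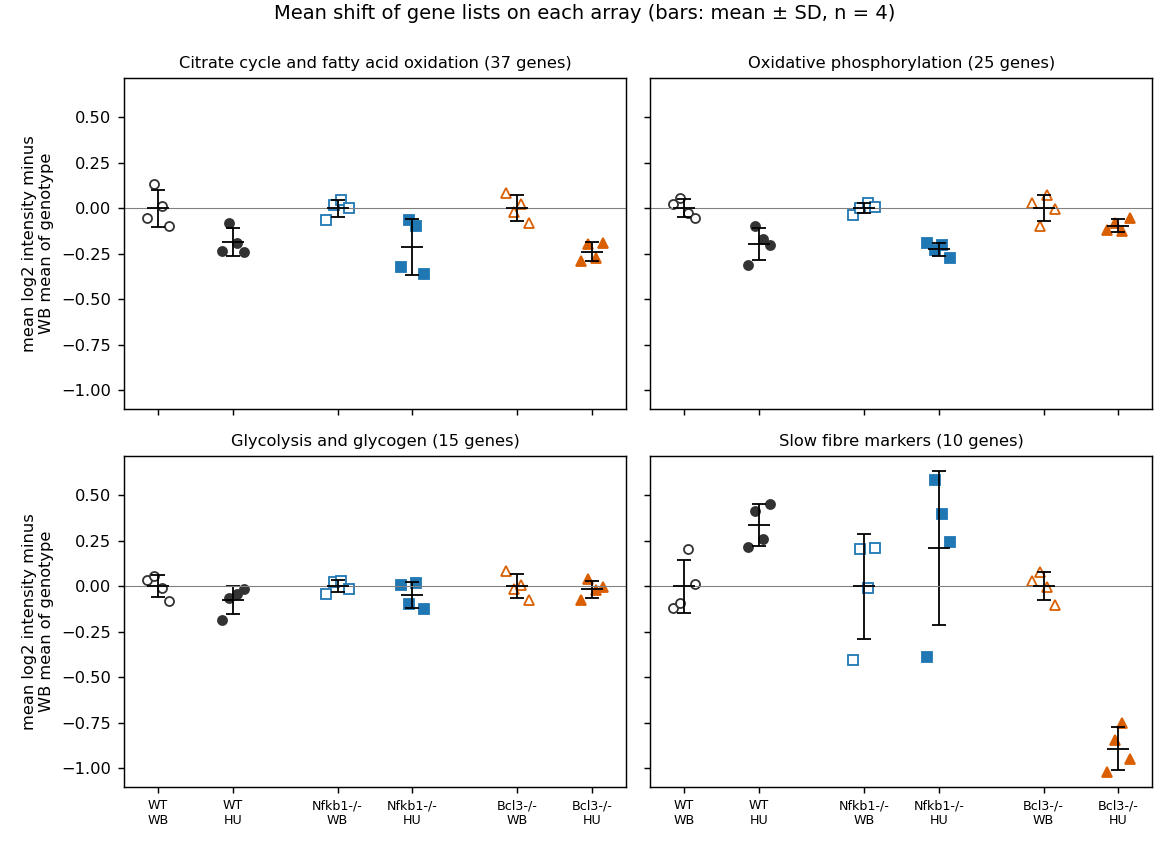
Mean log2 intensity of 4 gene lists on each array minus the WB mean of its genotype (vertical axis), with open marks for WB, filled marks for HU and bars for the mean ± SD (n = 4 arrays). The citrate cycle and fatty acid oxidation genes have a lower HU mean in every genotype, with the mildest WT and Nfkb1-/- HU arrays inside the WB range. The slow fibre markers lie between -1.02 and -0.75 on Bcl3-/- HU arrays but between 0.22 and 0.45 on WT HU arrays.

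Markers of fibre type and of other cells moved with some of these results. Of 10 slow fibre markers, none was called in WT by limma (6 at an unadjusted p under 0.05), 4 were called higher in Nfkb1-/- and 8 were called lower in Bcl3-/- mice. The higher were 40% of the list, beside 5.22% of all genes, and the lower were 80%, beside 2.99%. In WT mice 8 of the 10 log2 fold changes were positive, with a median of 0.39. Without 1 array the count of higher markers in Nfkb1-/- mice was 1 (WB replicate 1, HU replicate 2 or HU replicate 3) to 7 (HU replicate 1), 2 markers were lower without HU replicate 2, and 1 was higher in WT without WB replicate 4. The Bcl3-/- count stayed at 8. Their summed intensity in Bcl3-/- mice was 45731 to 50548 with weight bearing and 28459 to 32750 with unloading, and the regulatory light chain Myl2 changed by -2.52 (SE 0.26, adjusted p = 5.2e-06 from limma). Of 12 fast fibre markers, none was called in WT and 1 was lower in Nfkb1-/- mice (Myl1, -0.24, SE 0.07). In Bcl3-/- mice 1 was lower, Myh2, the myosin of fast oxidative fibres (-1.13, SE 0.23, adjusted p = 0.0030 from limma). Actn3 was called higher there (0.25, SE 0.06). Each was 8.33% of the list, beside 7.02%, 2.99% and 7.5% of all genes. Medians were 0.02, -0.12 and 0.00, and the lowest values in WT and Nfkb1-/- mice were -0.40 and -0.57. The calls of Myl1 and Actn3 were each lost without single arrays. In WT mice the slow markers summed to 8374 to 9917 with weight bearing and to 9173 to 11201 with unloading, and in Nfkb1-/- mice to 6908 to 9008 and to 6258 to 10712. All 10 pathway genes called lower in Bcl3-/- muscle thus stood beside lower slow fibre markers. The 5 in WT and the 15 in Nfkb1-/- muscle, Fabp3 among the latter, stood beside slow fibre markers of which none was called lower. From HU replicate 1 to 4 in Nfkb1-/- mice, the mean slow marker shift was -0.39, 0.58, 0.40 and 0.24 on the log2 scale. Fabp3 was likewise lowest on replicate 1 and highest on replicate 2 of these arrays. The part of fibre type in the results was not tested.

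Of 6 adipocyte markers, 3 were called higher in Nfkb1-/- mice (Retn, Adipoq and Cidec, at 0.55 to 0.78), while Thrsp gave -0.60 (adjusted p = 0.13), Lep -0.07 and Fabp4 0.30 there. The 3 were 50% of the list, beside 5.22% of all genes. Adipoq lost its call without WB replicate 2 or 4 and Cidec without WB replicate 3 or 4 or HU replicate 3. None of the 6 was called in the other genotypes by limma (2 at an unadjusted p under 0.05 in each). Their summed intensity in Nfkb1-/- mice was 892 to 1257 with weight bearing and 1103 to 1382 with unloading, in WT mice 892 to 1089 and 920 to 1082, and in Bcl3-/- mice 5646 to 6312 and 5801 to 6925. Of 9 fibroblast and tendon markers, 2 were called lower in WT, 4 in Nfkb1-/- and 4 in Bcl3-/- mice (in WT 0 without HU replicate 1), and their sums on HU arrays lay below those on WB arrays in each genotype (WT 8058 to 9557 with weight bearing and 6020 to 6525 with unloading, Nfkb1-/- 7723 to 9011 and 3557 to 6516, Bcl3-/- 37497 to 49478 and 25248 to 36387). The called markers were 22.2%, 44.4% and 44.4% of that list, beside 1.75%, 7.02% and 2.99% of all genes. Of 9 endothelial markers 1 was called (Egfl7, higher in Bcl3-/- mice), and of 10 macrophage markers and the 1 measured blood marker none was called by limma (at an unadjusted p under 0.05, 4 macrophage markers in WT, 1 in Nfkb1-/- and 0 in Bcl3-/- mice, and the blood marker in none). The 1 endothelial call was 11.1% of its list, beside 7.5% of all genes called higher in Bcl3-/- mice. The part of fat, tendon or vessel cells in the results, Lpl and Cd36 included, was not tested.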

How the data were processed

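The authors processed the scanned arrays with GCOS and RMA with quantile normalization and deposited 1 table of linear intensity values per probe set, which was used as deposited. Groups are those of the labels. Probe sets were named by the annotation supplied with the platform. Of 22690 probe sets, 64 are controls, 20380 of the others are listed with 1 gene, 691 with several and 1555 with none. Probe sets above an intensity of 20 on at least 4 of 24 arrays (19294) were tested. Of these, 9722 met that minimum on 4 WT or Nfkb1-/- arrays. Log2 intensities were fitted with limma 3.58.1 in R 4.3.3 with a mean per group, 18 residual and 5.89 prior degrees of freedom, and p-values adjusted over all probe sets tested. The number of arrays limits the precision. No file values are counts, and p-values rest on the spread between arrays within groups. That spread is 1 estimate per probe set shared by all 6 groups. The p-value of a response in 1 genotype therefore also rests on the spread in the others, unlike in the fits of only the groups compared. The fit was tested on simulated data. The genes and lists, written from textbook knowledge, were chosen with earlier results of these data known. Genes of other lists are named up to 3 per list and response, by size among those called, and values on each array are given for called genes, the widest shifts first. Pdk4, Pdk2, Ucp3 and Cs, and the genes whose promoters are shown, were picked after their values were seen. Alternatives were other filters, fits of only the groups compared, array weights, a trend and robust variance, quantile normalization again, centring, log2 of the intensity plus 16, the mean of all probe sets of a gene, the methods' t-test, the replicate number as a block and each array left out in turn. The share of called genes among bright genes was added after seeing the data. The deletions were not checked here.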

Additional observations from a re-analysis of the deposited data

Results flagged for a closer look

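In 15 of 222 sets of 4 arrays of a pathway gene, 1 array stood apart from the others by Dixon's test (6.76%, where chance flags about 1 in 20 groups). Arrays that were lowest among WB mice were Nfkb1-/- replicate 1 for Cd36 (intensity 318, the others 365 to 372) and Ech1 (459, the others 513 to 524), Nfkb1-/- replicate 2 for Pdhb (772, the others 816 to 819), WT replicate 4 for Hadh (1252, the others 1529 to 1578), WT replicate 1 for Pdk4 (260.0, the others 572 to 601) and Bcl3-/- replicate 4 for Decr1 (1040.3, the others 1170.1 to 1188) and Ucp3 (715, the others 831 to 852). Arrays that were highest among WB mice were all of Bcl3-/- mice, replicate 3 for Cs (7293), replicate 2 for Etfa (3243) and Hadh (6014) and replicate 1 for Hadhb (4337). Among HU mice, WT replicate 1 was lowest for Idh3g (859), WT replicate 2 was highest for Mdh2 (2377), and Bcl3-/- replicate 4 was highest for Mdh2 (9377, the others 9311 to 9319) and lowest for Pdk4 (2154, the others 3612 to 3804).

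Responses to unloading differed between genotypes by limma for these further genes, and for none of the 37 pathway genes with the settings used for the report. Of the 10 slow fibre markers, 7 differed for WT minus Bcl3-/- and 6 for Nfkb1-/- minus Bcl3-/-. WT minus Bcl3-/- was 1.09 on the log2 scale for Atp2a2 (adjusted p = 0.0059), 1.31 for Myh7, 2.82 for Myl2, 1.51 for Tnnc1, 1.81 for Tnni1, 1.05 for Casq2 and 1.13 for Tpm3, all slow fibre markers, and -0.61 for Idh1 (adjusted p = 0.048). Nfkb1-/- minus Bcl3-/- was 1.22 for Atp2a2, 1.31 for Myh7, 2.71 for Myl2, 1.55 for Tnnc1, 1.67 for Tnni1 and 1.18 for Tpm3.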

How the results depend on the processing

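The number of pathway genes called lower in WT mice, 5 by limma, was 9 with the intensity minimum set on the WT and Nfkb1-/- arrays or with a trend and robust variance, 16 with array weights, 12 with quantile normalization again within each set of arrays, and 1 when only the groups compared were fitted. The methods' t-test was run only on probe sets past the methods' fold filter, which left 6 of the 37 genes in WT, 8 in Nfkb1-/- and 6 in Bcl3-/- mice. Of these it called 0, 3 and 3 lower after Benjamini-Hochberg adjustment and 1, 4 and 3 by q-value, so most of the calls by limma were not tested by it. The Bcl3-/- count, 10 by limma, was 5 when only the groups compared were fitted. Array weights called 2 genes higher in Nfkb1-/- mice and 1 higher in Nfkb1-/- minus Bcl3-/- (Idh2). WT minus Bcl3-/- had 1 gene called higher, Fabp3, with only the groups compared, with array weights, with log2 of the intensity plus 16 and with the replicate block. The q-value of the methods' t-test called 1 gene, Fabp3, higher in WB Nfkb1-/- mice than in WT. Leaving out 1 array gave 2 to 7 lower in WT, 9 to 15 in Nfkb1-/- and 5 to 10 in Bcl3-/- mice, 0 to 2 higher for Nfkb1-/- minus Bcl3-/- (2 without Bcl3-/- WB replicate 4), 0 to 1 higher for WB Nfkb1-/- minus WT (1 without WT WB replicate 2), and 0 for the other counts of higher or lower genes. No gene with a call reversed its direction under these alternatives. The replicate numbers do not pair the mice (correlations from -0.17 to 0.22 over 12 pairs, 2 of them over 0.1), and the replicate block gave 4 genes lower in WT mice and called Fabp3 in WT minus Bcl3-/- (adjusted p = 0.040), and changed no other count of the 37 genes by over 1.5 times. Of the genes outside the 37 named here, it lost the calls of Ppara in WT and of Esrra and Pfkm in Nfkb1-/- mice.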
